A study of Mus musculus with 2 samples.

Results

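The genes described here encode the proteins that hold synaptic vesicles, bring them to the release site and couple their fusion to calcium: synaptotagmins, Doc2 proteins and rabphilin, complexins, synapsins, synaptophysins and synaptogyrins, SV2 proteins, Rab3 GTPases, RIMs, Munc13 proteins and the large active zone scaffolds. The rule that picks them reads gene symbols and no measured value, and they number 52 of the 55536 annotated genes in the tables. All values come from total RNA, depleted of ribosomal RNA, of the left cerebral cortex of female B6CASTF1/J mice aged 14 days, a hybrid with a C57BL/6J and a CAST/EiJ parent. There is 1 group with 2 libraries, replicate 1 and replicate 2, each made from 300 ng of RNA with ERCC spike-ins, and no other genotype, age or treatment. Both libraries carry the same donor entry. The description of each speaks of 3 females, but the tissue label of replicate 2 says "Female" with no such count, so the number of mice behind each library is not settled and the spread between libraries may be technical. In whole tissue, fewer cells of a type and less RNA per cell cannot be told apart.

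At a presynaptic terminal, transmitter-filled vesicles are clustered by synapsins and tethered at the active zone, where RIMs, Munc13 proteins, ELKS proteins, bassoon and piccolo organise the calcium channels and the docked vesicles. Munc13 primes vesicles by helping the SNARE complex to assemble, complexins bind the assembled SNAREs, and calcium binding to a synaptotagmin triggers fusion. In the mouse cortex the weeks after birth are a time of rapid synapse formation.

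Several of these genes make alternative proteins that differ by a short coding segment, and 5 of the segments whose inclusion is described below are printed here from the GENCODE M21 transcripts of mm10, 5′ to 3′, with 15 flanking coding bases on each side in lower case and the segment itself in capitals. They were chosen after the transcript values had been seen. The Syn1 segment, chrX:20861572-20861609 on the minus strand, has 38 bases, so it also shifts the reading frame, and it separates the longer and shorter products known as synapsin Ia and Ib. The Unc13a segment, chr8:71633439-71633495 on the minus strand, and the Unc13b segment, chr4:43260993-43261049 on the plus strand, have 57 bases each. The Rims1 segment, chr1:22594093-22594104 on the minus strand, has 12 bases. The Syt7 segment of 123 bases, chr19:10430338-10430460 on the plus strand, lies in the linker between the membrane anchor and the calcium-binding domains, as do 2 further alternative segments of that gene.
Syn1: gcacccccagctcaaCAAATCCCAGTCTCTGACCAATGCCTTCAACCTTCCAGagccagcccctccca
Unc13a: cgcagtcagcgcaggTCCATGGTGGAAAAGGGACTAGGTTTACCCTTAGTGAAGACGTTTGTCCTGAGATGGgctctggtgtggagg
Unc13b: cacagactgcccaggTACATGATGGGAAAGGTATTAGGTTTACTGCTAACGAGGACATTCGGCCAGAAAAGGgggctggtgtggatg
Rims1: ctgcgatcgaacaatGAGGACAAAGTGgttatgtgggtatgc
Syt7: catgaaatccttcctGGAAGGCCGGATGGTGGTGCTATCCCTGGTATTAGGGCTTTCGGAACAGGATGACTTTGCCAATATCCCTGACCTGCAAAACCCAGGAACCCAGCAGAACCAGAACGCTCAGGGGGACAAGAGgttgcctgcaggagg

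The Unc13a and Unc13b segments were identical at 40 of 57 positions (70.2%), compared base by base without gaps.

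Genes received 33.4M and 32.0M expected counts in replicate 1 and replicate 2, of which the 52 genes took 1.40% and 1.36%. A count of 0 allows up to 0.0899 and 0.0937 CPM (counts per 1e6 gene counts) in these libraries (3 counts, counting error only). The tissue label was checked against marker lists: markers of excitatory neurons (6 of 6), inhibitory neurons (7 of 7) and astrocytes (6 of 6) reached a level of 1 TPM (transcripts per 1e6, the authors' length-normalised unit) in both libraries. Markers of retina and photoreceptors reached it in neither (0 of 3). In a list of mast cell and neuroendocrine genes 3 of 4 were detected: Kit, Chga and Chgb averaged 17.9, 95.7 and 120 TPM, while Cpa3, a mast cell protease, had 0.03 TPM (1 count) in replicate 1 and was listed at 0 in replicate 2. The libraries themselves differed in some lists. Markers of myelinating oligodendrocytes summed to 2403 TPM in replicate 1, against 1342 TPM in replicate 2, and 8 of 8 were called higher in replicate 1 by the test described with the library comparison. Those of striatal neurons summed to 287 and 179 TPM (7 of 7 called higher). Choroid plexus markers summed to 11.7 TPM in replicate 1 and 136 TPM in replicate 2 (4 of 5 called lower). Most of each sum was Ttr (9.86 and 131 TPM), and the other choroid plexus markers had at most 1.05 and 2.69 TPM. Haemoglobin genes summed to 803 and 1203 TPM (3 of 3 called lower).

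Of the 52 genes, 47 were detected, that is, reached 1 TPM in both libraries. Among these, 34 averaged 20 TPM or more, 19 averaged 100 TPM or more, and 13 lay between 1 and 20 TPM. The median level over all 52 was 54.9 TPM in replicate 1 and 53.9 TPM in replicate 2, or 54.4 ± 0.689 TPM (SD, n = 2). The median of the 12959 detected protein-coding genes was 16.1 ± 0.587 TPM, and 35 of the 52 lay above it. Every family had at least 1 detected gene, and in 8 of 10 families 1 gene held more TPM than its relatives together; the exceptions were the synaptotagmins and the scaffolds. Ordered by mean level, 46 pairs of neighbours can be formed among the 47 detected genes, and in 20 of them the values of the 2 libraries overlapped, so their order is not resolved.

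**Figure D1:**
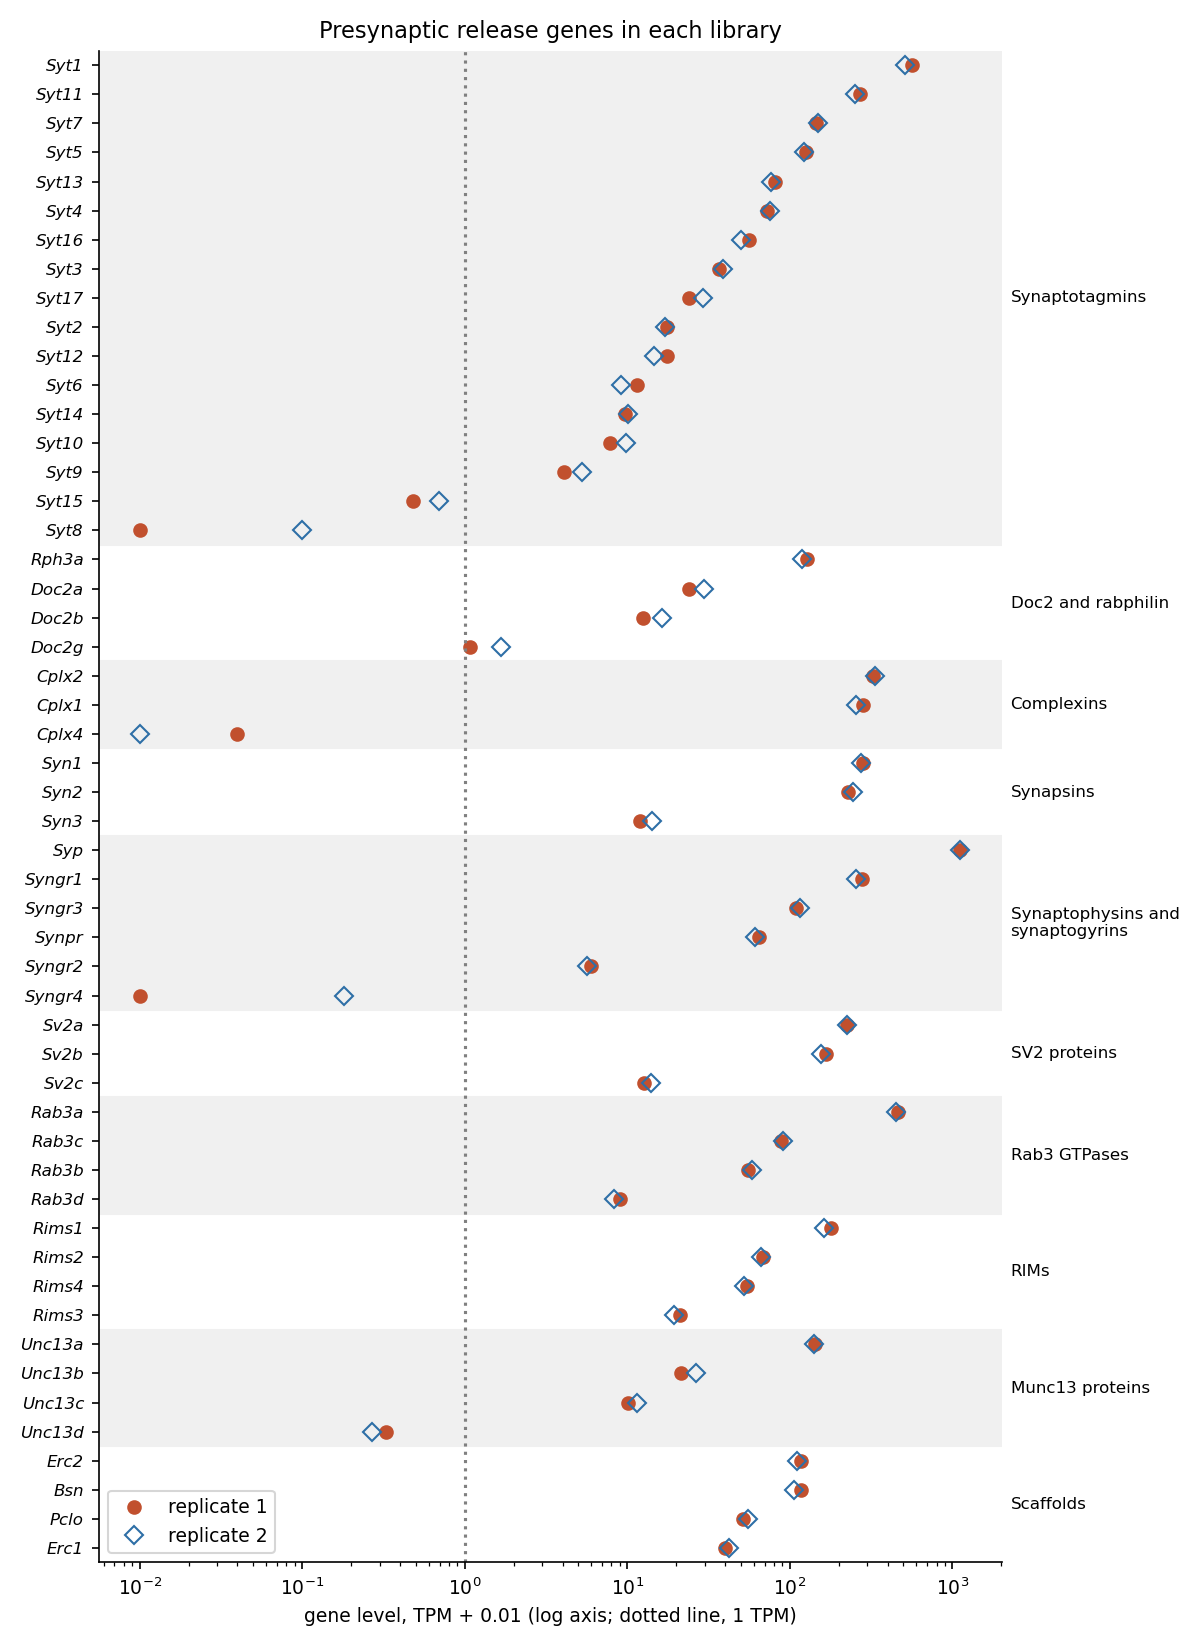
Level of each of the 52 genes, in TPM + 0.01 on a log axis, in replicate 1 (filled circles) and replicate 2 (open diamonds), grouped by family and ordered by mean within each. The dotted line marks 1 TPM: 47 genes lie to its right in both libraries, and Syt15, Syt8, Cplx4, Syngr4 and Unc13d lie to its left.

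The synaptotagmins were led by Syt1, the fast sensor of cortical synapses, which had 568 TPM in replicate 1 and 511 TPM in replicate 2. It held 39.2% and 37.3% of the summed TPM of the 17 synaptotagmin genes. Syt2 and Syt9, which act as fast sensors at other synapses, had 17.5 and 17.0 TPM and 4.06 and 5.29 TPM in replicate 1 and replicate 2. Syt1 was thus 31.0-fold above Syt2 (log2 ratio of TPM + 0.1, 4.96 ± 0.08, SD, n = 2) and 114-fold above Syt9 (6.83 ± 0.37). In each library the gap was far larger than the difference between libraries.

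Syt7, a slower sensor with high calcium affinity linked to asynchronous release and facilitation, had 146 and 148 TPM in replicate 1 and replicate 2. Syt1 stood 3.66-fold above it (log2 1.87 ± 0.12). Syt5 had 126 and 122 TPM, and Syt3, another calcium-binding member, 36.9 and 38.7 TPM. Syt3 was 3.67-fold above its relative Syt6 (log2 1.87 ± 0.28), which had 11.5 TPM in replicate 1 and 9.14 TPM in replicate 2. Syt10, a sensor known in mouse olfactory bulb neurons for the release of IGF1, had 7.87 and 9.78 TPM.

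Some members with little or no calcium binding were also abundant. Syt11, a regulator of endocytosis and vesicle trafficking, had 269 TPM in replicate 1 and 251 TPM in replicate 2, and was second in the family. Its closest relative Syt4, found on dense-core vesicles, had 72.4 and 75.6 TPM, so Syt11 was 3.51-fold above it (log2 1.81 ± 0.12). Syt13 had 80.7 and 76.4 TPM and Syt16 55.8 and 50.3 TPM in replicate 1 and replicate 2. Syt12 and Syt14 had 17.5 and 14.6 TPM and 9.64 and 10.1 TPM. The remaining detected member, Syt17, had 23.9 and 29.3 TPM. Below the detection level, Syt15 had 0.47 and 0.68 TPM, and Syt8 was listed at 0 in replicate 1 and had 0.09 TPM in replicate 2.

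Among the related proteins with paired calcium-binding C2 domains, Rph3a, encoding the Rab3 effector rabphilin, had 128 and 120 TPM in replicate 1 and replicate 2. The Doc2 proteins are soluble calcium sensors linked to spontaneous and asynchronous release. Doc2b had 12.5 and 16.3 TPM, against 24.1 and 29.5 TPM for Doc2a, and the log2 ratio of Doc2b over Doc2a was -0.89 ± 0.06. Doc2a shares 39.4% of its exon bases with Ino80e on the opposite strand, which had 23.4 and 24.7 TPM, and the sources used here do not say whether counting used strand. Doc2g had 1.07 and 1.66 TPM and shares 63.5% of its exon bases with Gm49405 on the same strand, so its level is uncertain.

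The complexins were represented by Cplx2 and Cplx1, with 325 and 335 TPM for Cplx2 and 283 and 254 TPM for Cplx1 in replicate 1 and replicate 2. The log2 ratio of Cplx2 over Cplx1 was 0.20 in replicate 1 and 0.40 in replicate 2, a 1.23-fold difference that was small but had the same sign in both libraries. Cplx4, a complexin of retinal ribbon synapses, had 0.03 TPM in replicate 1 and was listed at 0 in replicate 2.

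The synapsins bind vesicles to each other and to actin. Syn1 had 283 and 274 TPM, against 228 and 245 TPM for Syn2, a ratio of 1.18-fold (log2 0.24 ± 0.11). Syn3, known from immature neurons, had 11.98 and 14.14 TPM, so that Syn2 was 18.0-fold above it (log2 4.17 ± 0.09). Syn1 and Syn2 therefore held nearly all synapsin RNA in both libraries. Syn3 shares 14.1% of its exon bases with Timp3 on the opposite strand, which had 20.3 and 23.2 TPM. Of the 21 genes in the set with exons that overlap another gene, 7 overlap one that averaged 1 TPM or more over both libraries, and apart from Doc2a and Syn3 the shared part was at most 3.92% (Unc13a with Colgalt1).

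Syp, encoding synaptophysin, the most abundant membrane protein of small synaptic vesicles, had the highest level of all 52 genes, 1123 TPM in replicate 1 and 1109 TPM in replicate 2. Synpr, encoding its relative synaptoporin, had 65.0 and 60.8 TPM, and Syp was 17.7-fold above it (log2 4.15 ± 0.06). Syngr1 had 279 and 255 TPM, against 109 and 116 TPM for Syngr3, a ratio of 2.38-fold (log2 1.25 ± 0.16). Syngr2, the synaptogyrin of non-neuronal tissues, had 5.94 and 5.64 TPM. Syngr4 was listed at 0 in replicate 1 and had 0.17 TPM in replicate 2.

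The SV2 proteins are transporter-like glycoproteins of the vesicle membrane. Sv2a, the binding site of the antiepileptic drug levetiracetam, had 226.1 TPM in replicate 1 and 225.6 TPM in replicate 2. Sv2b had 167 and 155 TPM, 1.41-fold below Sv2a (log2 ratio of Sv2a over Sv2b 0.49 ± 0.07). Sv2c, known from basal ganglia, had 12.7 and 13.9 TPM, and Sv2a was 16.8-fold above it (log2 4.07 ± 0.09).

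Rab3 GTPases sit on vesicles and bind RIMs and rabphilin. Rab3a had 463 TPM in replicate 1 and 448 TPM in replicate 2, the third highest level of the set. Rab3c had 87.8 and 91.2 TPM and Rab3b 55.1 and 58.3 TPM, with Rab3a 5.09-fold above Rab3c (log2 2.35 ± 0.07) and 8.03-fold above Rab3b (log2 3.01 ± 0.09). Rab3d, best known from secretory cells outside the brain, had 9.03 and 8.27 TPM.

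At the active zone, Rims1 had 181 TPM in replicate 1 and 163 TPM in replicate 2, and Rims2 68.5 and 66.3 TPM. Rims1 stood 2.54-fold above Rims2 (log2 1.35 ± 0.07) and 8.47-fold above Rims3 (log2 3.08 ± 0.02). Rims3 and Rims4, which encode short RIMs that lack the domains binding Rab3 and Munc13, had 20.97 and 19.37 TPM and 54.7 and 52.3 TPM.

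The priming factor Unc13a had 142.4 TPM in replicate 1 and 141.6 TPM in replicate 2. Unc13b, its relative at a subset of excitatory synapses, had 21.5 and 26.4 TPM, and Unc13c, known from the cerebellum, 10.1 and 11.5 TPM. Unc13a was 5.94-fold above Unc13b (log2 2.57 ± 0.21) and 13.1-fold above Unc13c (log2 3.71 ± 0.14). Unc13d, which acts in the granules of blood cells, had 0.32 and 0.26 TPM.

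Among the scaffolds, Erc2 and Erc1 encode ELKS proteins. Erc2, the brain member, had 116 and 110.1 TPM, against 40.1 and 42.6 TPM for Erc1, a ratio of 2.74-fold (log2 1.45 ± 0.12). Bsn, encoding bassoon, had 117 and 105 TPM, against 51.5 and 55.5 TPM for Pclo, encoding piccolo, a ratio of 2.07-fold (log2 1.05 ± 0.18). For Bsn over Pclo the log2 ratio was 1.18 in replicate 1 and 0.92 in replicate 2.

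**Figure D2:**
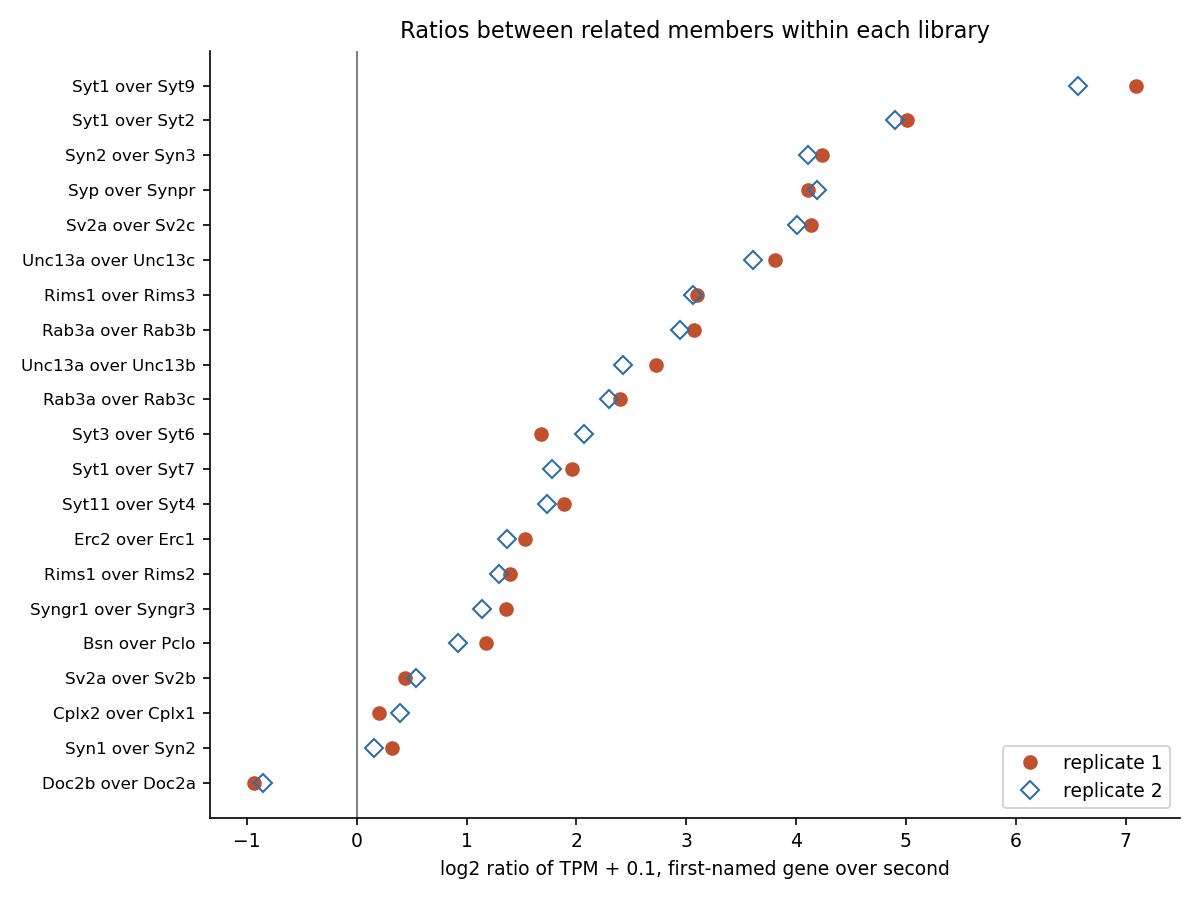
Log2 ratio of TPM + 0.1 between 21 pairs of related genes (first-named over second-named), in replicate 1 (filled circles) and replicate 2 (open diamonds). Each of the 21 ratios has the same sign in both libraries, with Syt1 over Syt9 the highest (7.09 and 6.57) and Doc2b over Doc2a the lowest (-0.93 and -0.86).

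The other genes of the release machinery, in a list of 42 that are not among the 52, gave a frame for these levels. Their medians were 189 TPM for SNARE proteins and their regulators, 61.7 TPM for other active zone proteins, 93.4 TPM for the release-linked calcium channels, 116 TPM for vesicle loading and membrane proteins and 145 TPM for endocytosis proteins, and all 42 were detected.

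Which transcripts carried these levels was read from the share of each annotated transcript in its gene's TPM, in both of the authors' quantifications. The first was made from an alignment to the transcriptome and the second from the reads. Of the 47 detected genes, 41 have several annotated transcripts. The leading transcript was the same in both libraries for 43 of 47 genes in the first quantification and for 43 in the second, and in all 4 transcript tables for 33. In 7 genes the libraries named 1 leading transcript within each quantification and the quantifications named different ones. Shares are estimates by the authors' tools and carry no depth of their own.

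Syn1 has 2 annotated transcripts, with and without the 38-base segment printed above, which encode 706 and 670 residues. In the second quantification the segment was included in 28.6% of Syn1 TPM in replicate 1 and 27.9% in replicate 2, and in the first in 48.7% and 51.8%. Both libraries of a quantification were close while the quantifications lay far apart, so the ratio of synapsin Ia to Ib RNA is not fixed by these tables.

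The 57-base segment of Unc13a was included in 49.4% of the spanning TPM in replicate 1 and 49.7% in replicate 2 by the first quantification, and in 53.6% and 53.8% by the second. It separates transcripts of 1731 and 1712 coded residues. The similar 57-base segment of Unc13b was included in 54.0% in replicate 1 and 46.6% in replicate 2 by the first quantification, and in 58.8% and 50.1% by the second. Annotated transcripts with and without the segment thus received TPM in both paralogs. In Unc13b the share was higher in replicate 1 by either quantification. These shares come from whole transcripts and not from reads across the segment. For Unc13a they rest on 1 transcript each way, Unc13a-208 and Unc13a-201, of 5654 and 10255 nucleotides. Unc13b-216 and Unc13b-201, with and without the segment, encode 1982 and 1590 residues, so they differ in more than the segment. The Unc13b transcripts counted without the segment include Unc13b-207, a retained-intron transcript. It had 0.31 TPM in replicate 1 and 1.22 TPM in replicate 2 by the first quantification, and 0 and 1.75 TPM by the second. The Unc13b shares therefore do not compare coding forms alone.

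In Syt7, the linker segments of 132, 369 and 123 bases were included in 71.0% to 74.2% of the spanning TPM by the first quantification and in 60.4% to 65.1% by the second. The leading form, Syt7-202, encodes 611 residues and held 45.6% and 45.2% of Syt7 TPM in replicate 1 and replicate 2. The short form with none of these 3 segments, Syt7-201, encodes 403 residues and held 18.8% and 18.7%. The transcripts counted with each segment include Syt7-209, annotated as a target of nonsense-mediated decay. It had 10.69 TPM in replicate 1 and 11.27 TPM in replicate 2 by the first quantification. Those with the 132-base segment also include Syt7-206, a retained-intron transcript with 10.98 and 17.21 TPM. The Syt7 segment shares therefore do not compare coding forms alone. The 12-base segment of Rims1 was included in 42.4% and 42.1% by the first quantification and 39.8% and 39.5% by the second. Only 1 spanning transcript holds it, Rims1-202, whose 2411 annotated bases are all coding, with no untranslated ends. The Rims1 share thus rests on 1 annotation that appears incomplete.

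In Erc2, a 36-base segment at chr14:28029434-28029469 was included in 29.7% of the spanning TPM in replicate 1 and 35.7% in replicate 2 by the first quantification. In Erc1, segments of 132 and 84 bases were included in 57.6% and 58.0%, and in 56.1% and 56.6%. The Erc1 TPM without the 132-base segment was that of Erc1-206, annotated as a target of nonsense-mediated decay. The same transcript held most of the TPM without the 84-base segment. These Erc1 shares therefore do not measure alternative proteins. In Syt14 a 57-base segment was included in 39.5% and 35.9%. None of these shares came near 0% or 100% in either library.

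**Figure D3:**
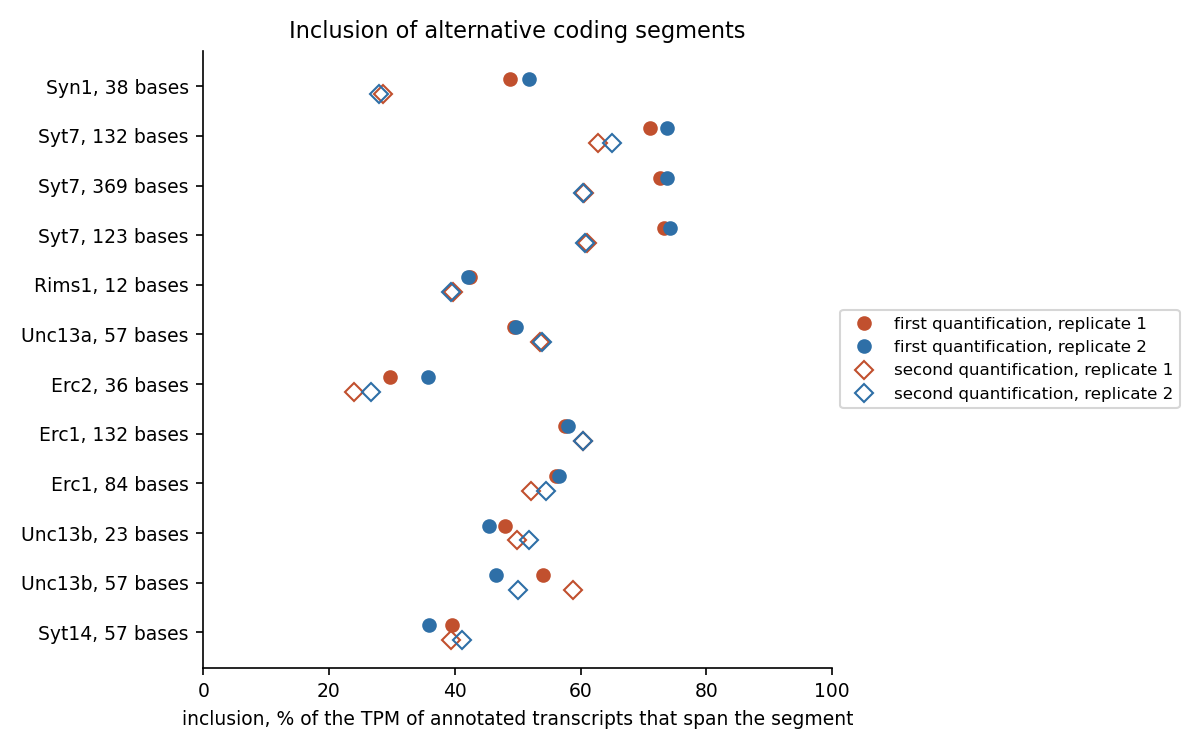
Inclusion of 12 alternative coding segments, as a percentage of the TPM of all annotated transcripts that span the segment, in the first quantification (filled circles) and the second (open diamonds), with replicate 1 in red and replicate 2 in blue. The libraries lie close together for most segments, and the Syn1 segment has the widest gap between quantifications (48.7% and 51.8% in the first, 28.6% and 27.9% in the second).

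Some leading transcripts are not annotated as coding. Syt16-201, annotated as a target of nonsense-mediated decay with 68 coded residues, held 78.4% and 85.0% of Syt16 TPM in replicate 1 and replicate 2 by the first quantification and 83.6% and 84.9% by the second. Counting only transcripts annotated as protein-coding, Syt16 had a mean of 3.35 ± 0.12 TPM by the first quantification (SD, n = 2). Erc1-206, also annotated as a target of nonsense-mediated decay, held 40.8% in both libraries by the first quantification. The coding transcripts of Erc1 had 22.7 ± 1.44 TPM by the same quantification. Restricted to coding transcripts, Erc1 and above all Syt16 were thus lower in the set than their gene levels show.

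For the most abundant gene the quantifications assigned the reads differently. Syp-206, a non-coding transcript of 433 nucleotides, held 34.3% of Syp TPM in replicate 1 and 34.6% in replicate 2 by the first quantification and was at 0 in the second. With coding transcripts of the first quantification only, Syp had 716 ± 10.6 TPM and Syt1 487 ± 35.0 TPM, so Syp remained above Syt1. By the second quantification, non-coding transcripts held 0.097% and 0.179% of Syp TPM in replicate 1 and replicate 2. Syp-202, a coding transcript of 494 nucleotides, had 448 and 270 TPM there, against 0 and 0.91 TPM by the first. Syt5-202, a transcript of 397 nucleotides, held 20.6% and 21.3% of Syt5 by the first quantification and was at 0 in the second. The first tables subtract 99 nucleotides from a transcript's length for its effective length and the second 341 and 347 nucleotides (medians of transcripts of 1000 nucleotides or more), a difference that weighs most on short transcripts, and its part in these shares was not tested.

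In 3 of the 7 genes whose leading transcript differed between the quantifications, the coded length was the same. Rab3a-201 held 12.6% and 6.64% of Rab3a TPM in replicate 1 and replicate 2 by the second quantification, against 80.9% and 79.4% by the first, and Rab3a-202, with the same 220 coded residues, led the second. Syn2-203 held 0.23% and 0.20% by the second, against 69.5% and 72.0% by the first, and Syn2-202, with the same 479 coded residues, led the second. Sv2b-201 and Sv2b-202, both of 683 coded residues, exchanged the lead in the same way. In the other 4 of the 7 genes the coded length of the leading transcript differed too. It was 49 residues by the second quantification and 681 by the first in Rph3a, 1296 and 285 in Rims2, 1731 and 1712 in Unc13a, and 194 and 224 in Syngr2. The annotated coding parts of Rph3a-202 (149 bases) and Rims2-206 (3889 bases), the leads of the second quantification, are not multiples of 3. Both annotations are thus incomplete, and 49 and 1296 residues are not lengths of whole proteins.

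Gene levels were higher in the second quantification for the detected genes by a median log2 difference of 0.53, beside 0.57 over all detected protein-coding genes, of which the middle 90% lay between 0.23 and 1.12. The order of the genes was close in both (Spearman's rho 0.992 across the genes, which share the libraries and are not replicates). Rph3a had 289 ± 0.43 TPM in the second quantification and 124 ± 5.89 TPM in the first, Syngr1 547 ± 34.3 and 267 ± 17.1 TPM, and Syt3 76.0 ± 2.19 and 37.8 ± 1.33 TPM (SD, n = 2 each). These 3 genes, with Syngr2 at lower levels, stood farthest above the common shift among the detected genes.

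**Figure D4:**
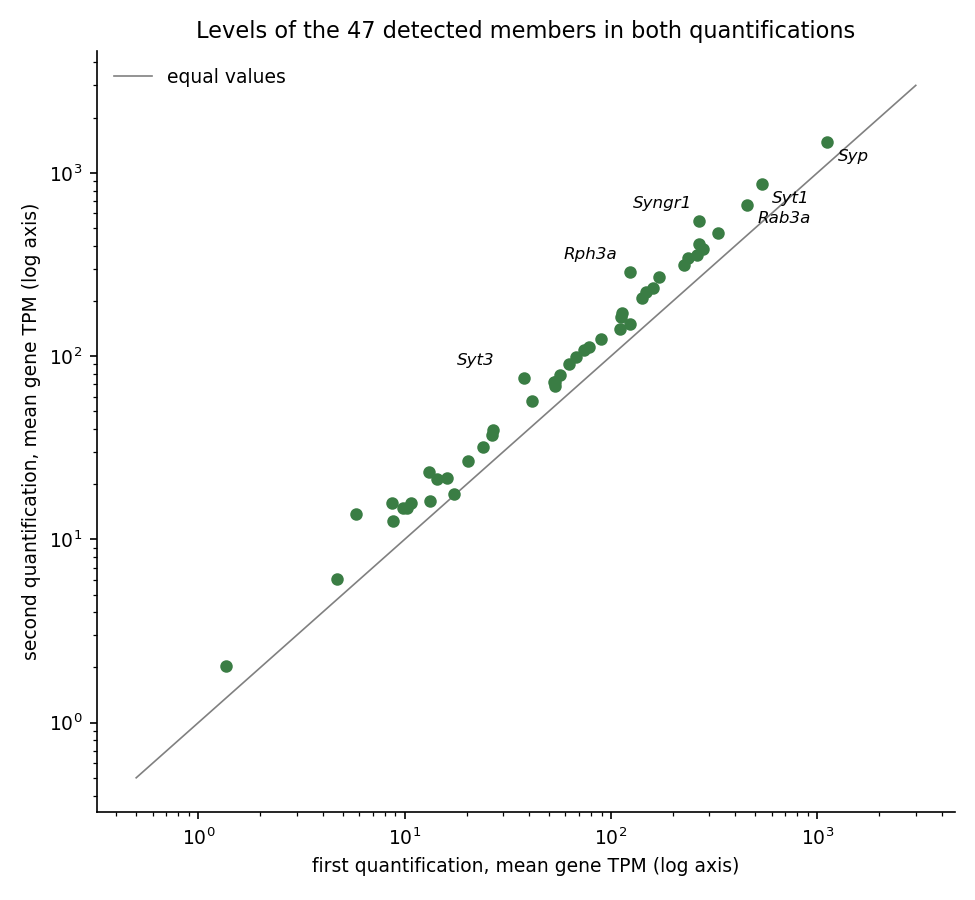
Mean level of the 47 detected genes in the second quantification (vertical axis) against the first (horizontal axis), both in TPM on log axes, with a line of equal values. All points lie above the line, and Rph3a, Syngr1 and Syt3 stand above their neighbours.

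The only test the design allows on single genes is the difference between the 2 libraries, which says how far these libraries differ beyond counting error and nothing about a condition. Of the 52 genes, 49 had 10 counts or more in at least 1 library. By a two-sided exact binomial test with Benjamini-Hochberg adjustment over 18887 genes, 24 were called higher in replicate 1 at an adjusted p under 0.05, 8 were called lower and 17 were not called. Over all genes tested, 11.4% were called higher and 8.88% lower. Most of the 52 genes have deep counts, where small differences pass. Among the 5575 genes with 1000 counts or more in both libraries, a limit chosen after the data were seen, 27.8% were called higher and 10.5% lower, beside 22 and 6 of the 39 such genes in the set (56.4% and 15.4%). The differences were small: the median log2 ratio of replicate 1 over replicate 2 was 0.07, beside -0.00 over all genes, and 28 of the 32 called genes had a size under 0.3. With an assumed dispersion of 0.01 in edgeR's exact test, 0 of the 49 genes and 0.964% of all genes were called, while 1 of the 49 had an unadjusted p under 0.05 by that test and 36 by the binomial test.

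The genes called higher in replicate 1 were Syp, Syt1, Rab3a, Syn1, Cplx1, Syngr1, Syt11, Sv2a, Rims1, Sv2b, Syt7, Unc13a, Syt5, Rph3a, Erc2, Bsn, Syt13, Rims2, Synpr, Rims4, Syt16, Syt2, Syt12 and Syt6. Those called lower were Syn2, Pclo, Syt17, Unc13b, Doc2b, Syn3, Unc13c and Syt9. The genes not called had log2 ratios from -0.45 (Doc2g) to 0.13 (Rab3d), among them the abundant Cplx2 (0.02), Syngr3 (-0.03), Rab3c (-0.04) and Syt4 (-0.00). The 3 RIM genes called were all higher, and 9 of the 11 called synaptotagmins were higher. In the whole set 24 of the 32 called genes were higher, and over all genes tested 2152 were called higher and 1678 lower. Among the synapsins Syn1 was called higher and Syn2 and Syn3 lower, and among the Munc13 genes Unc13a was called higher and Unc13b and Unc13c lower. With total gene counts as the scale, in place of TMM, 16 genes were called higher and 14 lower, beside 6.06% and 14.5% of all genes. With spike-in counts 17 were called higher and 14 lower, beside 6.51% and 13.6% of all genes. The split between directions depends on the scale, in the set and over all genes.

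The largest called ratio was that of Syt6, with 872 counts in replicate 1, against 638 in replicate 2 (log2 ratio 0.44 ± 0.08, counting SE, adjusted exact binomial p 4.71e-08). Syt2 followed with 1438 and 1132 counts (0.34 ± 0.06, adjusted exact p 4.33e-08). In TPM, which also takes in the estimated transcript length, the difference of Syt2 was small (17.5 and 17.0 TPM, log2 0.04) and that of Syt6 was 0.32. The mean Syt2 length in the gene tables was 3932 nucleotides in replicate 1 and 3335 in replicate 2. Syt9 had 269 counts in replicate 1 and 342 in replicate 2 (-0.33 ± 0.12), Doc2b 1147 and 1425 (-0.31 ± 0.06), Syt17 1303 and 1533 (-0.23 ± 0.05) and Syn3 635 and 730 (-0.20 ± 0.08, adjusted exact p 0.0499). These 4 genes were lower in replicate 1, and the call of Syn3 was close to the threshold.

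Abundant genes had smaller ratios with narrower counting errors. Syt1 had 52342 counts in replicate 1 and 45259 in replicate 2 (log2 ratio 0.21 ± 0.01), Cplx1 12678 and 10918 (0.21 ± 0.02), Bsn 37232 and 32874 (0.18 ± 0.01), Syngr1 23244 and 20443 (0.18 ± 0.01) and Rims1 11886 and 10452 (0.18 ± 0.02). Syt12, a less abundant gene, had 1090 and 930 (0.22 ± 0.06). In TPM the log2 ratio of Syt1 was 0.15. Of the 24 genes called higher, 23 were also higher in TPM, the exception being Syt7 (-0.02), and all 8 called lower were also lower in TPM. Markers of excitatory neurons summed to 3243 TPM in replicate 1, against 3023 TPM in replicate 2, and 5 of 6 were called higher. The sums of inhibitory neuron markers were 466 and 469 TPM. Lists of other cell types were read in the same way, beside 11.4% of all genes called higher and 8.88% lower. Endothelial markers summed to 81.5 TPM in replicate 1 and 77.6 TPM in replicate 2 (0 of 4 called). Oligodendrocyte precursor markers summed to 125 and 113 TPM (3 of 4 called higher) and microglia markers to 120 and 113 TPM (2 of 5). Astrocyte markers summed to 1542 and 1439 TPM (3 of 6 called higher, 2 lower), and most of each sum was Slc1a2 (1126 and 1005 TPM). In TPM, Slc1a2, Gja1 and Aldh1l1 were higher in replicate 1, and Slc1a3, Gfap and Aqp4 were lower. Mural and fibroblast markers had lower sums in replicate 1 (88.1 and 99.8 TPM, 50.5 and 62.65 TPM). The part of these markers, and of the myelin, striatal, choroid plexus and blood markers given above, in the differences of the 52 genes was not tested.

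**Figure D5:**
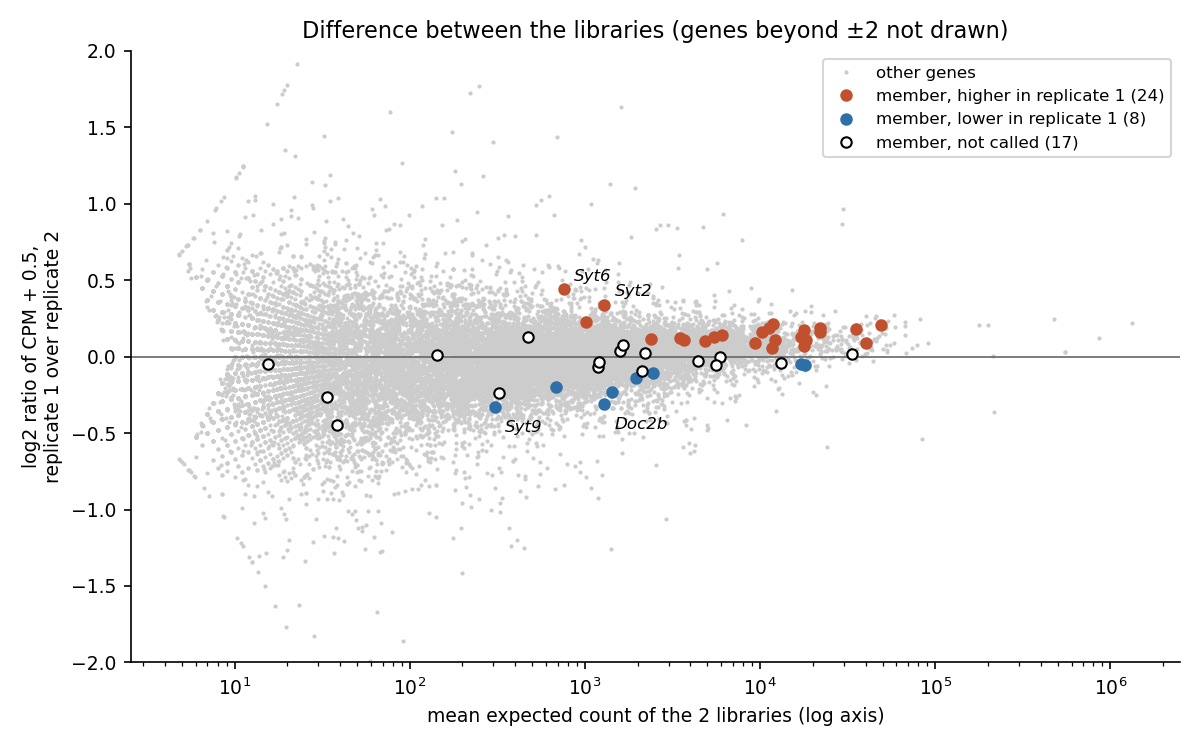
Log2 ratio of CPM + 0.5, replicate 1 over replicate 2, against the mean expected count on a log axis, for the genes tested (grey) and the 49 genes of the set that were tested: 24 called higher in replicate 1 (red), 8 called lower (blue) and 17 not called (open). The genes of the set lie between -0.45 and 0.44, and Syt6 and Syt2 stand highest.

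Of the other 42 presynaptic genes, 20 were called higher in replicate 1, 3 were called lower and 19 were not called. Their median log2 ratio was 0.07. Over all genes tested, 11.4% were called higher and 8.88% lower. Among genes with 1000 counts or more in both libraries the shares were 27.8% and 10.5%. A size of 0.3 or more was reached by 2 of the 42, both called lower by the exact binomial test. Slc17a6, a vesicular glutamate transporter most abundant below the cortex, had 14.3 TPM in replicate 1 and 17.1 TPM in replicate 2 (-0.38 ± 0.07), and Vat1l had 18.7 and 28.7 TPM (-0.54 ± 0.05).

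Promoter windows of 250 bases before a RefSeq gene start (GRCm38.p6) were available for 37 of the 52 genes, as 51 windows. These windows were rich in CpG dinucleotides, with a median of 13, beside 6 over all 32851 windows of that length, and a median GC content of 61.2%, beside 52.4%. The GC box GGGGCGGGG, read on both strands, was found in 18 of the 51 windows (35.3%) and in 10.4% of all windows. The 18 windows belong to 16 of the 37 genes. Windows of 1 gene can overlap, as in Syt6, so windows are not independent and a site can be counted more than once. The letters TTCAGCACC, the left part of the element bound by the neuronal repressor REST, were found in 1 of the 51 windows and in 0.301% of all, and the cAMP response element TGACGTCA in 1 of the 51 and in 1.55% of all. Both lie in the window of Syn1, whose repression by REST outside neurons is textbook knowledge. The stretch is shown with both motifs in capitals, 5′ to 3′ on the minus strand, at chrX:20921005-20921168, up to the first base of the annotated gene. The motifs lie 232 to 224 and 159 to 152 bases before the RefSeq start. A match is a description of letters and not a measured site.
Syn1 upstream: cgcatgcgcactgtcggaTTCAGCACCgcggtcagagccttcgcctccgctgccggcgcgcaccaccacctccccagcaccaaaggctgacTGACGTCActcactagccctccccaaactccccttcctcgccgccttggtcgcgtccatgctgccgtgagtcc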

How the data were processed

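Total RNA-seq of 2 libraries of 1 group was used. The tables that the authors deposited hold, per library, expected counts and TPM of genes and of transcripts from a transcriptome alignment (the first quantification), and estimated counts and TPM of transcripts quantified from the reads (the second), on mm10 with GENCODE M21, per the text deposited with the samples. Expected counts and estimated counts carry no normalisation, per the file headers. TPM values were scaled by the authors over all rows of a table. The sources used here name no aligner, counting tool or strand setting. Reads of the hybrid were quantified against mm10, and the effect of CAST/EiJ alleles was not tested. The deposited numbered rows that name no gene (26248 rows, 1.49e-05% and 1.51e-05% of counts) and the spike-ins (0.359% and 0.361%) were left out.

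The 52 genes, the pairs and the other lists were chosen with earlier results of these data known. Second-table values were summed per gene. Pairs were compared as log2 of (TPM + 0.1) within a library, without a test, since an exact test over 2 libraries cannot go below p = 0.5. A pair was read as larger than the spread where its log2 ratio was over 2 SD with 1 sign. Libraries were compared on rounded expected counts with a two-sided exact binomial test (scipy 1.17.1), the share taken from edgeR 4.0.16 TMM sizes (R 4.3.3), with Benjamini-Hochberg adjustment over the genes that reached 10 counts in either library. The binomial test was also run on simulated counts that varied by sampling only, which is what it assumes. That run cannot show how the test behaves when real libraries vary more, and the calls take no support from it. Ratios are log2 of (CPM + 0.5), with counting SEs, and the addition understates the change of low genes. Genes at a mean of 20 TPM or more and those of the pairs were named with both values, called genes were named by direction, and the 12 largest called ratios got values. Inclusion of a segment is the TPM of annotated transcripts holding it over that of all annotated transcripts spanning it. Alternatives were other thresholds, scales, pseudocounts, the second tables, each library alone and DESeq2 1.42.0 size factors. Sequences come from GENCODE M21 transcripts and RefSeq promoter windows. Protein sequences were not used here.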

Additional observations from a re-analysis of the deposited data

How the results depend on the processing

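The count of 47 detected genes lay between 46 and 48 under thresholds of 0.5 and 2 TPM, in the second tables and in each library alone. The median level of the 52 genes moved to 74.3 TPM in the second tables and to 106 TPM when TPM was rescaled over protein-coding genes. With protein-coding transcripts of the first quantification only, an alternative chosen after seeing the data, the median level moved to 46.5 TPM. It was 53.9 and 54.9 TPM in a single library. The 24 genes called higher in replicate 1 numbered 16 with total gene counts and 17 with spike-in counts as the scale, 24 with DESeq2 size factors and with the lowest counts kept, and 25 in the second tables. The 8 called lower numbered 14 with total gene counts and 14 with spike-in counts, 7 with DESeq2 size factors, 6 with the lowest counts kept, 9 at a minimum of 50 counts and 5 in the second tables. Over all genes, 6.06% were called higher and 14.5% lower with total gene counts, 6.51% and 13.6% with spike-in counts, 11.4% and 8.46% with DESeq2 size factors, 7.18% and 4.998% with the lowest counts kept, 13.8% and 11.9% at 50 counts, and 11.96% and 8.28% in the second tables. Total gene counts moved every log2 ratio by -0.06 and spike-in counts by -0.05. With an assumed dispersion of 0.01 in edgeR, 0 genes were called higher and 0 lower. The number with the same leading transcript in both libraries was 43 in either quantification. None of the 21 pair ratios changed sign under other pseudocounts, the second tables, coding transcripts only or either library alone. With the second quantification, 10 of 21 pair ratios moved by more than the SD between libraries, and with coding transcripts only 11 did. Of the 34 levels of 20 TPM or more, 34 moved by more than their SD in the second tables, 34 with rescaling over protein-coding genes and 12 with coding transcripts only. On the authors' TPM, a comparison added after seeing the data, 26 of the 32 called ratios between libraries moved by more than their counting SE, and that of Syt7 turned to -0.0234. The cause of these movements was not tested. No paired analysis was possible because there is 1 group. With 2 libraries, neither the spread between mice nor any change with age can be measured, and counts cannot show genes below the limits that a count of 0 allows.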
